A study of Homo sapiens with 115 samples.

Results

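The expression of 40 factors of ribosome biogenesis was followed through the stages of recovery from irradiation in single HCT116 cells, a human colorectal cancer line. The 40 genes were taken by name from the gene count table, which holds 43386 entries, and all 40 had enough counts to enter the fits, as did 19894 entries in all. By the role of their products they comprise 6 abundant nucleolar proteins, 3 subunits of RNA polymerase I, 7 core proteins of small nucleolar ribonucleoproteins (snoRNPs), 9 factors of the small ribosomal subunit and 15 factors of the large subunit. The word abundant is part of the group's name only, as protein was not measured. Each was compared between stages and lines, and its level was set against that of MYC in the same cell.

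Ribosomes are built mainly in the nucleolus, where RNA polymerase I makes the precursor of the large rRNAs. That precursor is modified by snoRNPs, cut, and assembled with ribosomal proteins by separate sets of factors for the small and the large subunit. Many genes of these factors are known targets of MYC, a transcription factor that binds the E-box CACGTG, and growing tumour cells make ribosomes at a high rate.

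By the labels, the cells comprised 13 unirradiated cells at day 0 ([N]), 17 pre-budding cells at day 7 ([P]), 36 budding cells at day 10 ([B]), 30 progenies that had budded off at day 10 ([S]) and 19 repopulated cells at day 30 ([R]). The [P] and [B] cells are the radiation-tolerant persisters, polyploid cells that outlive the irradiation, here with 8 Gy. The labels give 8 Gy for [N] as well, which the methods call unirradiated. Of the cells, 72 were of a p53+/+ line and 43 of a p53-/- line. The text of the study divides the cells between the lines differently from the labels, and which cells this concerns is not given in the sources used here. Each line is 1 clone, so a difference between the lines cannot be told apart from a difference between clones. Each library was made from 1 picked cell by full-length amplification without molecular identifiers. Expression is given as CPM, the count of a gene scaled to a common total and so a share of the counts of a cell, so the amount of RNA per cell was not measured.

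The labels name no culture, so cells of 1 stage and line were not taken as replicates. Their counts were therefore summed, which gave 10 sums and n = 2 per stage, 1 from each line. These sums were fitted in edgeR, and a gene was called at an adjusted p under 0.05 over all genes tested. Values within a line subtract the log2 CPM of 1 sum from that of another. P-values of these fits measure the spread between these sums alone. The comparisons with [N] share its 2 sums, so their values are not independent of each other.

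Total counts per cell ran from 4056329 to 100173192 with a median of 34238237, and 5911 to 19258 genes were detected. Epithelial markers were present (7 of 10 genes at a median of 10 CPM or more in each stage), with medians of the summed level of 6860 to 11800 CPM. The summed level of 8 fibroblast, 8 leukocyte and 4 endothelial markers had medians of at most 4.95, 17.7 and 0.208 CPM in any stage. Cells are called here by their labels. The letter G stands in the titles of 17 of the 36 [B] cells and of 1 of the 30 [S] cells, a p53+/+ cell, and in no title of another stage. The share of counts from mitochondrial rRNA moved with the stage. Its median was 1.06% ([N]), 3.13% ([P]), 4.58% ([B]), 3.74% ([S]) and 2.24% ([R]), and its part in the differences between stages was not tested.

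The letters CACGTG stood close to the transcription start of many of these genes. RefSeq (GRCh38.p14) gave promoters, 250 bases before to 50 bases after a start, for 33 of the 40 genes. BOP1, DDX18, NOLC1, NOP58, RRP12, RRS1 and TCOF1 had no entry. At least 1 promoter entry held CACGTG, which reads the same on both strands, for 16 of the 33 genes (48.5%). Among other biogenesis factors with an entry the share was 27.8%, among 12666 tested genes 11.8%, and among all 27305 genes with an entry 8.77%. The related letters CACGCG, on either strand, were present for 12 of the 33 genes (36.4%), against 20.6% of the tested genes. The 6 windows of 30 bases whose E-box begins within 10 bases of the start follow, 5′ to 3′ on the gene's strand, because they hold the letters that MYC is known to bind, and capitals mark CACGTG. The window of FBL is chr19:39846356-39846385 (minus strand), that of GNL2 chr1:37595917-37595946 (minus), that of GNL3 chr3:52686026-52686055 (plus), that of RRP9 chr3:51941892-51941921 (minus), that of UTP20 chr12:101280083-101280112 (plus) and that of WDR43 chr2:28894658-28894687 (plus).
FBL: tgcgctcttttcCACGTGcgaaagccccgg
GNL2: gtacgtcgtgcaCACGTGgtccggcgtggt
GNL3: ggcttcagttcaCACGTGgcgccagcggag
RRP9: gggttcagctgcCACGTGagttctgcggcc
UTP20: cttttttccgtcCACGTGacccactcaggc
WDR43: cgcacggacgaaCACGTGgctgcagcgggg
The E-box began at base 4 after the start in GNL2 and WDR43, at base 7 in FBL and GNL3, at base -5 in RRP9 and at base -10 in UTP20. These are matches of letters, and no binding was measured.

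The level of the 40 genes differed widely between genes. In the [N] sum of the p53+/+ line, the level per kilobase of canonical transcript was highest for NPM1 (nucleophosmin, a nucleolar chaperone) at 2970 CPM per kilobase. It was 888 for NOP10 and 765 for NHP2, small proteins of the box H/ACA snoRNPs that guide pseudouridylation. The lowest were POLR1A, the largest subunit of RNA polymerase I, at 1.62 and UTP20, a scaffold of the small subunit, at 1.22. Within the group named abundant nucleolar proteins the level ran from 6.11 for MYBBP1A and 15.8 for TCOF1 up to that of NPM1. Counts were dense. Of the 4600 pairs of gene and cell, 20 were at 0, and 27 of the 40 genes had a count in all cells. UTP20 was at 0 in 6 cells and POLR1B in 3 cells.

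Together the 40 genes held a median of 1.08% of the counts of an unirradiated cell. Their summed level in [N] was 10033 CPM in the lowest cell, 10820 in the median and 12485 in the highest. In [P] the lowest, median and highest cells were at 5352, 7951 and 9682 CPM, so that all 17 [P] cells were below all 13 [N] cells. In [B] the summed level ran from 4632 to 13911 CPM with a median of 7730, and 35 of 36 cells were below the lowest [N] cell. In [S] it ran from 4295 to 13330 CPM with a median of 8124, and 23 of 30 cells were below that level. In [R] it ran from 8081 to 12787 CPM with a median of 9870, and 11 of 19 cells were below it. The order of [P], [B] and [S] differed between the lines. The medians for p53+/+ were 11500 CPM ([N]), 8940 ([P]), 7900 ([B]), 6850 ([S]) and 9940 ([R]), and those for p53-/- were 10400 ([N]), 7200 ([P]), 6590 ([B]), 9390 ([S]) and 9820 ([R]). NPM1 alone held a median of 28.7% of this sum in [N] and 18.4% in [R]. Without NPM1 the medians were 7891 CPM ([N]), 5688 ([P]), 5656 ([B]), 6207 ([S]) and 7911 ([R]), and [P], at 4275 to 8106 CPM, overlapped with [N], at 6951 to 8468 CPM.

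A score that weights the genes equally, the mean log2(CPM + 1) over the 40 genes, had an SD over the cells of both lines of 0.600 in [P], 0.421 in [B] and 0.616 in [S], against 0.329 in [N] and 0.248 in [R]. This was not particular to the 40 genes. The mean over all tested genes had an SD of 0.414 in [P], 0.356 in [B] and 0.389 in [S], against 0.13 in [N] and 0.105 in [R]. For p53+/+ cells the lowest, median and highest scores of the 40 genes were 6.48, 6.82 and 7.38 in [N], 6.47, 6.93 and 7.05 in [P], 5.42, 6.66 and 7.27 in [B], 4.97, 6.51 and 7.46 in [S], and 6.74, 7.16 and 7.43 in [R]. In the p53-/- line they were 6.84, 7.20 and 7.37 in [N], 4.97, 6.44 and 6.92 in [P], 5.79, 6.31 and 6.80 in [B], 6.47, 6.69 and 7.41 in [S], and 7.09, 7.23 and 7.70 in [R]. The spread in [P] was that of the p53-/- line, with an SD of 0.643 against 0.212 in the p53+/+ line. Of the [S] cells, 19 of 30 were below the lowest [R] cell, while the highest [S] cell of the p53+/+ line was above all [R] cells of that line. Median scores differed between groups of cells whose titles share their leading digits, called a name prefix here. In the p53+/+ line the highest-scoring prefix had a median score of 7.09 in [B] and 7.26 in [S], over 3 cells each, and the lowest-scoring prefix 6.11 in 5 [B] and 5.51 in 2 [S] cells. In [P] of the p53-/- line the 4 cells of name prefix 1206 had a median of 5.5, against 6.71 in the 3 cells of name prefix 1115. Single cells of a prefix could lie close together or far apart. The 4 cells of 1206 ran from 4.97 to 6.92, the range of the whole group, and the 3 of 1115 from 6.47 to 6.83. In [B] of the p53+/+ line the highest-scoring prefix ran from 7.05 to 7.13 and the lowest-scoring from 5.42 to 6.85.

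**Figure D1:**
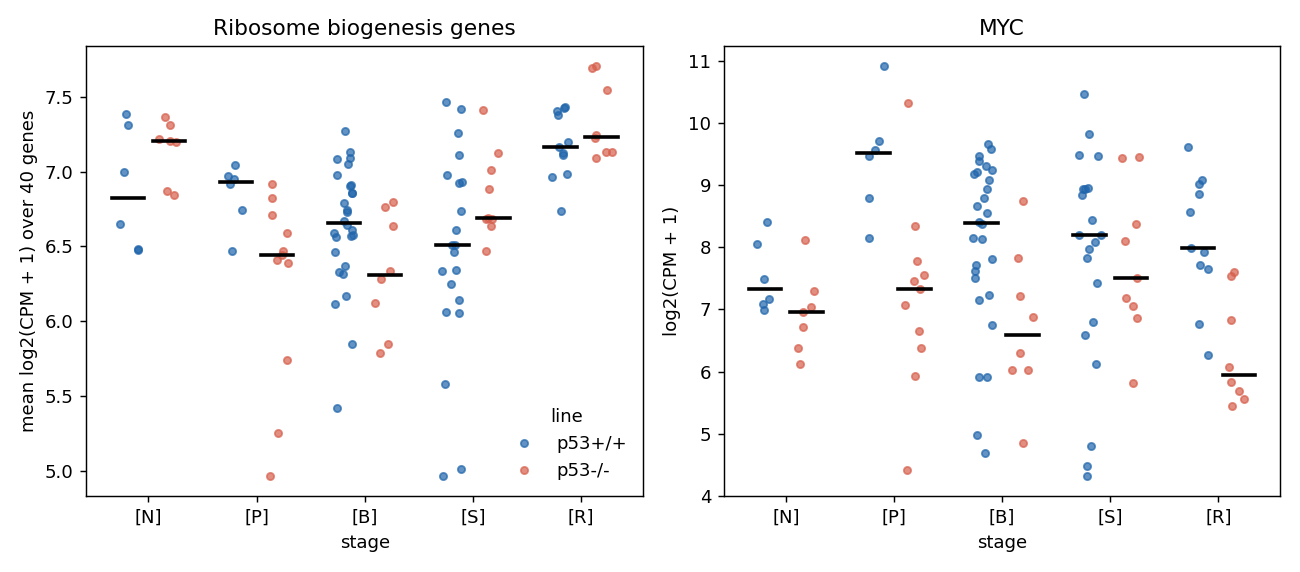
Score of the 40 ribosome biogenesis genes (left, mean log2(CPM + 1)) and level of MYC (right, log2(CPM + 1)) in each cell by stage; blue points are p53+/+ and red points p53-/- cells, and bars are medians. The scores of [P], [B] and [S] reach down to between 4.97 and 5.42, while no [N] or [R] cell is below 6.48; the medians of MYC in [P] are 9.52 (p53+/+) and 7.32 (p53-/-).

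In [P] versus [N], the comparison of persisters before budding with unirradiated cells, the 40 genes were lower as a group in the sums but no gene was called. Their median log2 fold change was -0.70, against 0.15 over all genes tested, and 37 of the 40 were below 0, as were 43.7% of all genes. edgeR called 0 of 40, against 0.0201% of all genes. At an unadjusted p under 0.05, 15 of 40 were lower and 0 higher, against 4.9% and 7.01% of all genes. Both [P] sums were below both [N] sums for 30 of the 40 genes, which was so for 19.9% of all genes. The median was -0.56 (p53+/+) and -0.92 (p53-/-). The median score of p53+/+ cells was not lower, at 6.82 in [N] and 6.93 in [P], while that of p53-/- cells was 7.2 and 6.44. DESeq2 on the same sums called 7 of 40 lower, against 1.26% of all genes. Of 24 proliferation genes, 23 were below 0 in this comparison, with a median of -0.86 and 0 called by edgeR. Their part in the values of the 40 genes was not tested.

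By role, the large-subunit factors had the lowest median in [P] versus [N], at -0.86 with 15 of 15 below 0. RRP1 had a log2 fold change of -1.35 (SE 0.28, adjusted p = 0.284 from edgeR), and NOP2, an rRNA methyltransferase, of -1.18 (SE 0.27, adjusted p = 0.284 from edgeR). BRIX1 was at -1.23 (SE 0.32) and PES1, of the PeBoW complex needed for the large subunit, had the lowest value of the 40 at -1.45 (SE 0.43). In single cells PES1 ran from 5.01 to 118 CPM in [N] with a median of 53.3, and from 0.733 to 61.1 CPM in [P] with a median of 19.7, so the stages overlapped. The small-subunit factors had a median of -0.67 with 9 of 9 below 0, the abundant nucleolar proteins of -0.58 with 5 of 6, the RNA polymerase I subunits of -0.56 with 2 of 3 and the snoRNP core of -0.49 with 6 of 7. NCL (nucleolin, an abundant nucleolar RNA-binding protein) was at -1.07 (SE 0.28, adjusted p = 0.286 from edgeR), NPM1 at -0.74 (SE 0.31), DKC1, the pseudouridine synthase of the H/ACA snoRNPs, at -0.92 (SE 0.34), FBL (fibrillarin, the methyltransferase of the box C/D snoRNPs) at -0.56 (SE 0.28) and POLR1B, the second largest subunit of RNA polymerase I, at -0.56 (SE 0.43). NOP10 had the highest value at 0.54 (SE 0.49), with -0.72 (p53+/+) and 1.57 (p53-/-).

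MYC went the other way in [P] versus [N] without passing the test. Its log2 fold change was 1.19 (SE 0.78, adjusted p = 0.581 from edgeR), with 1.5 for p53+/+ and 0.32 for p53-/- cells. Leaving out the p53+/+ sum of [P] gave -0.20. In single cells of the p53+/+ line MYC ran from 126 to 339 CPM in [N] with a median of 160, and from 283 to 1920 CPM in [P] with a median of 732. In the p53-/- line it ran from 68.6 to 276 CPM in [N] and from 20.3 to 1280 CPM in [P], with medians of 124 and 159, and the stages overlapped. Among cells of name prefix 1115, the only prefix of both stages, the median difference of the 40 genes was -0.51 for p53+/+ (6 [P] cells, 1 [N] cell) and -0.65 for p53-/- (3 and 2 cells), and that of MYC was 1.06 and 1.00.

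In [B] versus [N] 1 of the 40 genes was called, BRIX1, a factor of the large subunit, which was lower. It was 1 of 90 genes called lower, 0.452% of all genes tested. The log2 CPM of BRIX1 was 9.19 and 8.75 in the [N] sums of the p53+/+ and p53-/- line, 7.86 and 7.63 in [P], 7.56 and 6.80 in [B], 8.03 and 8.23 in [S], and 8.17 and 8.11 in [R]. Both [B] sums were thus the lowest of their line. The log2 fold change was -1.76 (SE 0.32, adjusted p = 0.0457 from edgeR). In single cells BRIX1 ran from 237 to 904 CPM in [N] with a median of 431, and from 24.4 to 657 CPM in [B] with a median of 172, and the stages overlapped. The call is close to the threshold. It was lost when any of 9 of the 10 sums was left out (adjusted p up to 0.327 from edgeR) and with each cell weighted equally (adjusted p = 0.0701 from limma).

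The other genes had the same direction in [B] versus [N]. The median of the 40 was -0.61, against 0.20 over all genes, 39 of 40 were below 0, against 42.8% of all genes, and the lines had medians of -0.39 (p53+/+) and -0.84 (p53-/-). At an unadjusted p under 0.05, 16 were lower and 0 higher, against 9.16% and 9.37% of all genes. Both [B] sums were below both [N] sums for 24 of the 40, against 22.9% of all genes. With the line as a block, which compares the stages within each line, 3 of 40 were called lower, against 2.2% of all genes. They were BRIX1 (adjusted p = 0.0158 from edgeR), UTP15 of the small-subunit processome (log2 fold change -1.33, adjusted p = 0.0358) and POLR1B (log2 fold change -1.62, adjusted p = 0.0483). DESeq2 called 11 of 40 lower, against 5.13% of all genes.

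Among the nucleolar proteins, NCL was at -1.13 (SE 0.28, adjusted p = 0.0891 from edgeR) and NPM1 at -0.98 (SE 0.31, adjusted p = 0.147). NCL had medians of 793 CPM in [N] and 425 CPM in [B], with [B] cells between 207 and 735 CPM and [N] cells between 285 and 1270 CPM. POLR1B was at -1.53 (SE 0.44, adjusted p = 0.118 from edgeR), with -1.10 and -2.09 in the lines. Of the snoRNP core, DKC1 was at -1.05 (SE 0.34), FBL at -0.38 (SE 0.28) and NOP10, at 0.47 (SE 0.49), was the only gene of the 40 above 0. MYC was at 0.52 (SE 0.77, adjusted p = 0.785 from edgeR), with 0.73 (p53+/+) and -0.01 (p53-/-). Proliferation genes were lower in the same comparison. Of 24, 10 were called lower and 0 higher, against 0.452% and 0.206% of all genes, with a median of -2.23. Their part in the values of the 40 genes was not tested.

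**Figure D2:**
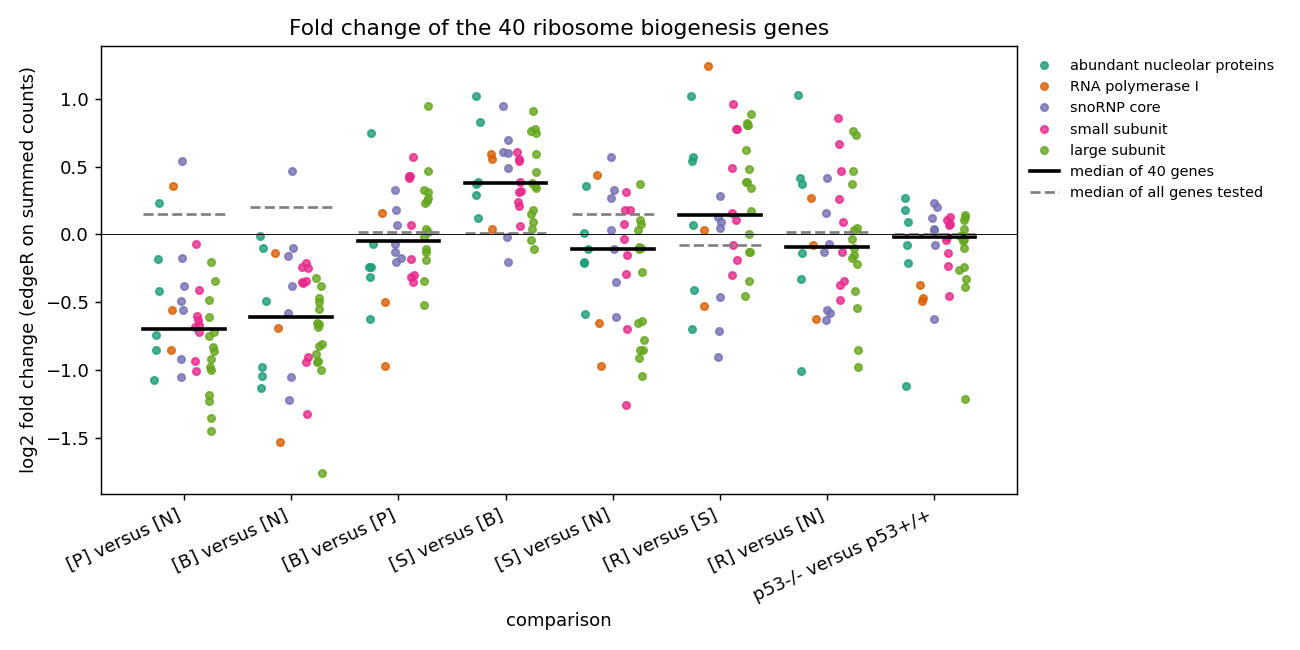
Log2 fold change from edgeR (y axis) of each of the 40 genes in each comparison (x axis); points are genes coloured by role, black bars the median of the 40 and dashed grey bars the median of all 19894 genes tested. The black bars are at -0.70 for [P] versus [N] and at -0.61 for [B] versus [N], where nearly all points are below 0, and within 0.14 of 0 in the other comparisons except [S] versus [B], where the bar is at 0.38.

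Between pre-budding and budding persisters the 40 genes had little difference as a group. In [B] versus [P] the median was -0.05, against 0.02 over all genes, with 19 genes above and 21 below 0, and 49.0% of all genes were below 0. None of the 40 had an unadjusted p under 0.05, against 5.18% of all genes. While edgeR called 0 of 40 and 0% of all genes, DESeq2 called 0 of the 40 and 0.643% of all genes. POLR1B was at -0.97 (SE 0.44) and TCOF1 (treacle, which links RNA polymerase I to its template) at -0.62 (SE 0.29). PES1, at 0.95 (SE 0.43), and MYBBP1A, at 0.75 (SE 0.36), were the highest, and all 4 genes had the same sign in both lines. NCL was at -0.07 (SE 0.28), NPM1 at -0.24 (SE 0.31), FBL at 0.18 (SE 0.28), DKC1 at -0.13 (SE 0.33) and MYC at -0.67 (SE 0.77, adjusted p = 1 from edgeR). The 2 name prefixes that hold both stages, each with 1 [B] against 4 [P] cells of the p53-/- line, each gave a median of 0.10 over the 40 genes. Over all genes the medians were -0.06 (name prefix 1118) and -0.40 (1206). There MYC was higher in [B], at 0.56 and 0.77, opposite to its sign in the sums.

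The sums of the budded progenies had higher values than those of the budding cells in most of the 40 genes, without a call, while the median cell of the p53+/+ line was not higher. In [S] versus [B] the median was 0.38, against 0.01 over all genes, and 4 of 40 were below 0, against 49.6% of all genes. edgeR called 0 of 40 and 0% of all genes. At an unadjusted p under 0.05, 6 of 40 were higher and 0 lower, against 2.65% and 1.54% of all genes. DESeq2 called 0 of the 40, against 0.256% of all genes. Both [S] sums were above both [B] sums for 21 of the 40, against 15.5% of all genes. The lines had medians of 0.13 (p53+/+) and 0.75 (p53-/-), a difference the 10 sums cannot test. Median cells went opposite ways in the lines. For p53+/+ the median summed level was 7900 CPM in [B] and 6850 in [S] and the median score 6.66 and 6.51, and for p53-/- they were 6590 and 9390 CPM and 6.31 and 6.69. Without the [S] cell titled with G, a setting added after the data were seen, the median over the 40 genes was 0.39. NCL had the highest value at 1.02 (SE 0.28, adjusted p = 1 from edgeR). Its log2 CPM was 8.75 and 8.63 in the [B] sums and 9.40 and 9.96 in the [S] sums, while its [S] cells ran from 34.9 to 1630 CPM and overlapped with [B]. FBL was at 0.95 (SE 0.28), TCOF1 at 0.83 (SE 0.29), BRIX1 at 0.91 (SE 0.31), DKC1 at 0.70 (SE 0.33), POLR1B at 0.56 (SE 0.43) and NPM1 at 0.39 (SE 0.31). NOP10 was lowest at -0.20 (SE 0.49).

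The [S] and [B] cells of 11 pairs of name prefix and line could be compared within the pair. With sums per stage, prefix and line and the pair as a block, 14685 genes were tested, and the median of the 40 genes was 0.14, against -0.08 over all genes. In this fit 28 of 40 were above 0, 0 were called and 4 were higher at an unadjusted p under 0.05, against 1.68% of all genes. NCL was at 0.57 (SE 0.23, adjusted p = 1 from edgeR). The median of the 40 genes was above 0 in 8 of the 11 pairs and ran from -0.85 to 1.08. The [S] cell titled with G is the whole [S] side of 1 pair, where the median was -0.03 and MYC was at -1.58. The difference between the lines was tested within pairs, 7 of p53+/+ and 4 of p53-/-, after the data were seen. The median of the 40 genes was 0.03 (p53-/- minus p53+/+), against 0.08 over all genes, with 22 of 40 above 0. edgeR called 0 of 40 and 0% of all genes. An unadjusted p under 0.05 was reached by 1 of 40 on the higher side, PES1 at 1.84 (SE 0.81, adjusted p = 1 from edgeR), and by 0 on the lower side, against 1.95% and 1.94% of all genes. MYC was higher in [S] in 6 of the 11 pairs. Across the 10 sums its value was 0.41 (SE 0.77), with -0.10 and 1.36 in the lines, and it was -0.21 in the fit within pairs. Proliferation genes were higher in [S] versus [B], with 24 of 24 above 0, a median of 1.33 and 0 called by edgeR.

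In [S] versus [N] the median was -0.11, against 0.15 over all genes, with 15 genes above and 25 below 0, and 43.9% of all genes were below 0. edgeR called 0 of 40, against 0.0704% of all genes, and 5 of 40 were lower and 0 higher at an unadjusted p under 0.05, against 5.49% and 7.84% of all genes. These 5 were UTP15, GNL2, NOP2, WDR12 and BRIX1. UTP15 had the lowest value at -1.26 (SE 0.31, adjusted p = 0.204 from edgeR), with a log2 CPM of 6.49 and 6.33 in the [N] sums and of 5.18 and 5.12 in the [S] sums, and DESeq2 called it, as the only gene of the 40 (adjusted p = 0.00829), against 1.54% of all genes called lower by it. GNL2, a nucleolar GTPase, was at -0.91 (SE 0.28), NOP2 at -0.78 (SE 0.26) and WDR12, of the PeBoW complex, at -1.04 (SE 0.37). FBL was highest at 0.57 (SE 0.28). NCL was at -0.11 (SE 0.28), NPM1 at -0.59 (SE 0.31), DKC1 at -0.35 (SE 0.33), POLR1B at -0.97 (SE 0.44) and MYC at 0.93 (SE 0.78, adjusted p = 0.646 from edgeR).

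In [R] versus [S], the comparison of repopulated cells with budded progenies, none of the 40 genes was called and values lay on both sides of 0. There the median was 0.14, against -0.08 over all genes, with 14 below 0, against 53.1% of all genes. edgeR called 0 of 40, against 0.0201% of all genes, and DESeq2 called 0 of the 40, against 7.0% of all genes. An unadjusted p under 0.05 was reached by 8 genes on the higher and 2 on the lower side, against 6.11% and 9.01% of all genes. POLR1B had the highest value at 1.24 (SE 0.44, adjusted p = 0.234 from edgeR). It had a median of 40.4 CPM in 30 [S] cells, of which 2 were at 0, and of 125 CPM in 19 [R] cells, which ran from 26.9 to 200 CPM. NOP2 was at 0.81 (SE 0.26), GNL2 at 0.81 (SE 0.28) and MYBBP1A at 1.02 (SE 0.37). On the lower side, NOP10 was at -0.90 (SE 0.49) and FBL at -0.71 (SE 0.28, adjusted p = 0.274 from edgeR). NCL was at 0.54 (SE 0.28), NPM1 at -0.41 (SE 0.31), DKC1 at 0.28 (SE 0.33) and MYC at -0.69 (SE 0.77, adjusted p = 0.733 from edgeR). The [R] cells share no name prefix with another stage, so stage and name prefix cannot be told apart here.

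In [R] versus [N] the median was -0.09, against 0.02 over all genes, with 17 above and 23 below 0, against 48.1% of all genes below 0. With library size as the only scaling it was 0.06. edgeR called 0 of 40 and 0% of all genes, and DESeq2 called 0 of the 40, against 2.02% of all genes. On each side of 0, 3 genes had an unadjusted p under 0.05, against 4.47% and 4.13% of all genes. NPM1 was lowest at -1.01 (SE 0.31, adjusted p = 0.563 from edgeR). Its log2 CPM was 11.94 and 11.58 in the [N] sums and 10.87 and 10.65 in the [R] sums, and the 13 [N] cells ran from 2350 to 4120 CPM and the 19 [R] cells from 1130 to 2390 CPM, so the ranges barely overlapped. MYBBP1A was highest at 1.03 (SE 0.37, adjusted p = 0.563), with a median of 18.1 CPM in [N] and 52.5 CPM in [R]. BRIX1 was at -0.85 (SE 0.31) and NOP16, of the large subunit, at -0.98 (SE 0.37). NCL was at 0.42 (SE 0.28), FBL at -0.13 (SE 0.28), DKC1 at -0.07 (SE 0.33), POLR1B at 0.27 (SE 0.43) and MYC at 0.24 (SE 0.77, adjusted p = 0.963 from edgeR). Across the 40 genes, the fold change had a Spearman correlation with transcript length of 0.42 for [R] versus [S] and of 0.35 for [R] versus [N], against 0.11 and 0.11 over 15550 tested genes with a length. Genes are no independent replicates, and these are descriptions.

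**Figure D3:**
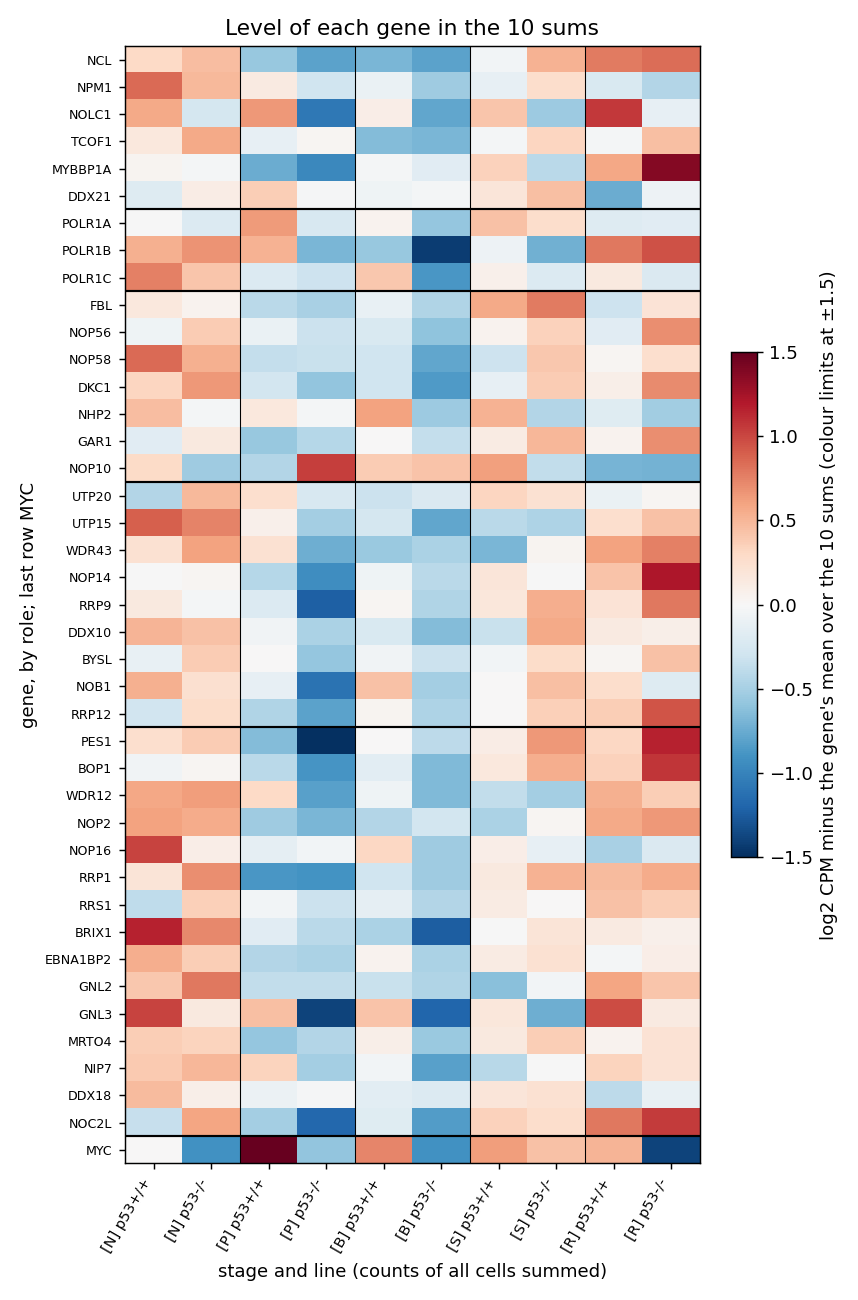
Level of each of the 40 genes and of MYC (rows, ordered by role, with lines between roles) in the 10 sums of stage and line (columns), as log2 CPM minus the mean of the gene over the 10 sums; red is above and blue below the mean, with colours ending at 1.5. The [P] and [B] columns of the p53-/- line are the bluest, BRIX1 is reddest in [N], and MYC in the last row is red in [P] of the p53+/+ line, at a log2 CPM of 9.41, and blue in [R] of the p53-/- line, at 6.53.

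Between the lines the 40 genes did not shift together, but NOLC1 and GNL3 stood apart in the same direction at each stage. In p53-/- versus p53+/+, with the stages as blocks, the median was -0.02, against 0 over all genes, with 16 above and 24 below 0, against 50.3% of all genes below 0. edgeR called 0 of 40, against 0.206% of all genes, and 4 of 40 were lower and 0 higher at an unadjusted p under 0.05, against 7% and 6.91% of all genes. These 4, NOLC1, GNL3, NHP2 and POLR1C, were also those lower in all 5 stages, as were 7.01% of all genes. The median of the 40 was 0 ([N]), -0.33 ([P]), -0.46 ([B]), 0.25 ([S]) and 0.15 ([R]).

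NOLC1, a chaperone of snoRNPs, had a log2 CPM of 8.49, 8.57, 8.02, 8.33 and 8.98 in [N], [P], [B], [S] and [R] of the p53+/+ line, and of 7.65, 6.84, 7.14, 7.37 and 7.79 in the p53-/- line. All values of the p53-/- line were below all of the p53+/+ line. Its log2 fold change was -1.12 (SE 0.18, adjusted p = 0.052 from edgeR). GNL3 (nucleostemin, a nucleolar GTPase) had 8.99, 8.43, 8.40, 8.15 and 8.95 in the p53+/+ line and 8.12, 6.59, 6.79, 7.24 and 8.11 in the p53-/- line, a log2 fold change of -1.21 (SE 0.20, adjusted p = 0.0526 from edgeR). In [P], where the lines were farthest apart, GNL3 ran from 196 to 524 CPM in 6 p53+/+ cells and from 23.2 to 204 CPM in 11 p53-/- cells. Both genes just missed the threshold. Neither passed it in any fit with 1 of the 10 sums left out (adjusted p from 0.0738 to 0.17 for NOLC1 and from 0.076 to 0.247 for GNL3), with library size as the only scaling (0.0707 and 0.0638) or without the stage block (0.135 and 0.275). Without cells under 10000 genes NOLC1 passed (adjusted p = 0.0428 from edgeR) and GNL3 did not (0.053). Both passed without a filter on low counts (adjusted p = 0.00232 and 0.00165). They also passed it with the cells thinned to a common depth (adjusted p = 0.0175 and 0.0193), with each cell weighted equally (adjusted p = 0.0382 and 0.0312 from limma) and in DESeq2 (adjusted p = 3.69e-06 and 3.75e-06), which called 3 of 40 lower, against 4.12% of all genes. NHP2 was at -0.62 (SE 0.19, adjusted p = 0.177 from edgeR) and POLR1C at -0.47 (SE 0.20). TCOF1 was highest at 0.27 (SE 0.15). NCL was at 0.09 (SE 0.17), NPM1 at -0.21 (SE 0.19), FBL at 0.04 (SE 0.17), DKC1 at 0.12 (SE 0.21) and POLR1B at -0.49 (SE 0.23).

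MYC was lower in the p53-/- line at each of the 5 stages, with differences of -0.90 ([N]), -2.08 ([P]), -1.64 ([B]), -0.19 ([S]) and -1.90 ([R]). Its log2 fold change was -1.35 (SE 0.28, adjusted p = 0.0815 from edgeR), and in DESeq2 it was called (adjusted p = 7.48e-05). In [R] the p53-/- cells ran from 42.6 to 192 CPM with a median of 61, and the p53+/+ cells from 76.1 to 781 CPM with a median of 253. The median score of the 40 genes for p53-/- against p53+/+ cells was 7.20 against 6.82 in [N], 6.44 against 6.93 in [P], 6.31 against 6.66 in [B], 6.69 against 6.51 in [S] and 7.23 against 7.16 in [R].

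Within a stage and line, cells with more MYC tended to have higher levels of the 40 genes. The Spearman correlation of the score with MYC was above 0 in 9 of the 10 groups of stage and line. In the p53+/+ line it was 0.77 for 6 [N] cells, 0.49 for 6 [P], 0.57 for 28 [B], 0.59 for 21 [S] and 0.38 for 11 [R] cells. In the p53-/- line it was -0.50 for 7 [N] cells, 0.23 for 11 [P], 0.29 for 8 [B], 0.55 for 9 [S] and 0.50 for 8 [R] cells. Over all cells, after the mean of each stage and line was subtracted, it was 0.45, with 0.58 over 72 p53+/+ and 0.23 over 43 p53-/- cells. Without subtracting these means it was 0.28. When cells were centred within stage, line and name prefix, a setting added after the data were seen, the correlation over cells with a partner was 0.43, with 0.38 (p53+/+) and 0.51 (p53-/-). The labels name no culture, so cells of a group were not taken as independent, and both values come from the same library. No p is given for these reasons.

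Other measures moved with the score as well. Its correlation within stage and line was 0.44 with the mean of the 24 proliferation genes, 0.20 with the number of genes detected, 0.50 with the mean over all tested genes and -0.37 with the share of counts in the 50 highest genes. With the share of mitochondrial rRNA it was 0.04. MYC itself had a correlation of 0.04 with the proliferation genes, 0.07 with the number of genes detected and 0.33 with the mean over all tested genes. With cells thinned to a common depth, the correlation of score and MYC was 0.44. Thinning does not remove the mean over all tested genes, which moved with both.

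**Figure D4:**
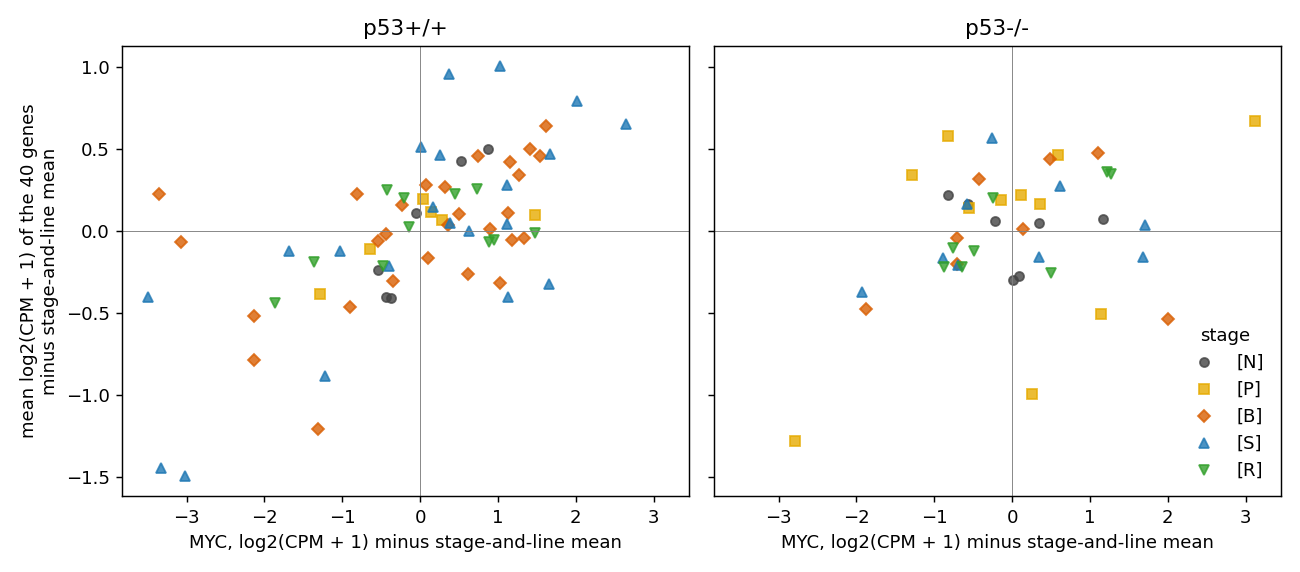
Score of the 40 genes (y axis) against MYC (x axis) in each cell, both as log2(CPM + 1) minus the mean of the stage and line, for the p53+/+ line (left, 72 cells) and the p53-/- line (right, 43 cells); markers show the stage. The Spearman correlation is 0.58 on the left, where the lowest scores are cells with little MYC, and 0.23 on the right.

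Gene by gene, the correlation with MYC within stage and line was higher for the 40 genes than for most genes. Their median was 0.28, 36 of 40 were above 0, and 30 of 40 were above the upper quartile of all tested genes, which was 0.19. Over all tested genes the median was 0.08, and 13 of the 40 were above the 95th percentile of all tested genes. Level and length of transcripts differed between the 40 and other genes, and both moved with this measure. Among the 7161 genes with a mean level at or above that of UTP20, the lowest of the 40, the median was 0.16. Relative to tested genes of like transcript length, in 20 bins, the median of the 40 was 0.16 higher and 36 of 40 were above the median of their bin, against 0.19 higher without bins. By role the medians were 0.37 for the RNA polymerase I subunits, 0.31 for the abundant nucleolar proteins, 0.29 for the small-subunit factors, 0.21 for the large-subunit factors and 0.21 for the snoRNP core.

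The highest correlations with MYC were those of NOLC1 (0.48), NIP7, a large-subunit factor (0.47), and DDX10, an RNA helicase of the small subunit (0.44). NOLC1 and DDX10 were at 0.45 and 0.36 in the p53+/+ and at 0.50 and 0.55 in the p53-/- line, NIP7 at 0.57 and 0.20. The lowest were NHP2 (-0.35), NOP10 (-0.14) and MRTO4, a large-subunit factor (-0.10). NOP10 and NHP2 have the shortest transcripts of the 40, with 507 and 780 bases. Across the 40 genes the correlation with MYC had a Spearman correlation of 0.34 with transcript length, and over 15550 tested genes one of 0.38. The 16 genes with CACGTG in a promoter entry had a median correlation with MYC of 0.24, and the 17 genes with an entry but without these letters one of 0.29. For [B] against [N], these genes had a median log2 fold change of -0.37 with and -0.88 without CACGTG, for [P] against [N] one of -0.67 and -0.75, and for [R] against [S] one of 0.14 and 0.13. The gap for [B] against [N] was the widest of the 8 comparisons.

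**Figure D5:**
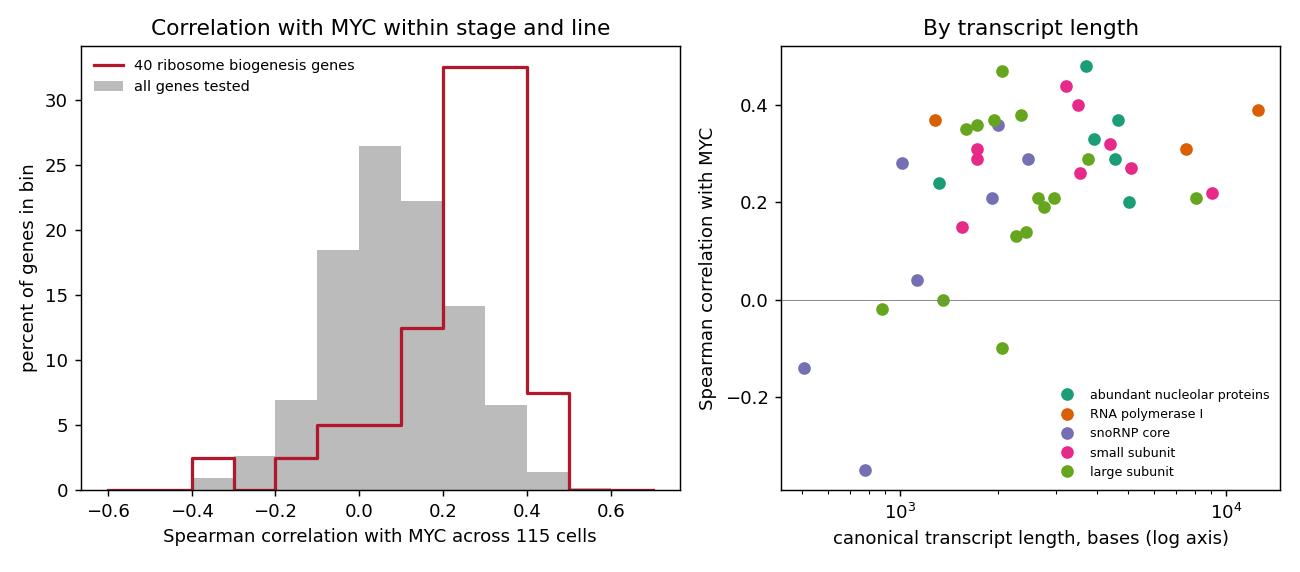
Left, distribution of the Spearman correlation with MYC across cells within stage and line (x axis) as the percent of genes per bin (y axis), for all genes tested (grey bars) and the 40 genes (red line). Right, the correlation of each of the 40 genes against the length of its canonical transcript on a log axis, coloured by role; the median of the 40 is 0.28 against 0.08 for all genes, and NOP10 and NHP2, the shortest, are at -0.14 and -0.35.

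The 40 genes also moved with each other across cells. Of the 780 pairs, 635 (81.4%) had a correlation above 0 within stage and line, with a median of 0.25. Over all pairs of tested genes the share was 70.8% and the median 0.07, and over pairs of the 7161 genes with a mean level at or above that of UTP20 they were 68.4% and 0.11. The highest was between PES1 and BOP1 (0.75), whose products sit together with WDR12 in the PeBoW complex. PES1 and BOP1 were also at 0.74 and 0.70 with NOC2L, and NOP58 was at 0.67 with BRIX1. DKC1 followed the mean of the other genes most closely (0.71), then NCL (0.68). NOP10 went against it (-0.54), with -0.62 to NOP2 and to NOC2L, followed by NHP2 (-0.20), NOP16 (-0.04) and DDX18 (0). These 4 genes thus followed the others least.

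A wider list of biogenesis factors, 131 tested genes that are not among the 40, went the same way against unirradiated cells. In [P] versus [N] their median was -0.52, with 19 of 131 above 0, while 43.7% of all genes were below 0. edgeR called 0 of the 131, against 0.0201% of all genes. At an unadjusted p under 0.05, 38 were lower and 1 higher, against 4.9% and 7.01% of all genes. The smallest p-values were those of WDR18, of the large-subunit pathway, at -1.71 (SE 0.28, adjusted p = 0.284 from edgeR), PPAN at -1.71 (SE 0.32) and NAT10, which acetylates 18S rRNA, at -1.40 (SE 0.31). In [B] versus [N] the median was -0.61, with 109 below 0, against 42.8% of all genes. Of the 131, 0 were called, against 0.658% of all genes. At an unadjusted p under 0.05, 55 were lower and 3 higher, against 9.16% and 9.37% of all genes. NOL11, a small-subunit processome protein, was at -1.69 (SE 0.35, adjusted p = 0.0591 from edgeR), RIOK2, a kinase of the small subunit, at -1.33 (SE 0.29) and MTREX, the helicase of the nuclear exosome, at -1.44 (SE 0.32). With the line as a block these 3 were called (adjusted p = 0.0323, 0.0389 and 0.0417 from edgeR), among 9 of the 131 called lower, against 2.2% of all genes.

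In the other comparisons edgeR called 0 of the 131, against at most 0.206% of all genes. In [B] versus [P] their median was -0.08. An unadjusted p under 0.05 was reached there by 6 that were higher and 3 that were lower, against 1.95% and 3.23% of all genes. The smallest p-values were those of NOP53 (0.82, SE 0.26), DDX49 (1.08, SE 0.34) and EXOSC9 (-1.12, SE 0.36). In [S] versus [B] the median was 0.30, with 7 higher and 0 lower, against 2.65% and 1.54% of all genes. DDX54 (0.99, SE 0.30), WDR18 (0.79, SE 0.28) and EXOSC9 (0.97, SE 0.36) led by p. In [S] versus [N] the median was -0.33, with 5 higher and 20 lower, against 7.84% and 5.49% of all genes. TMA16 (-1.17, SE 0.32), WDR75 (-1.34, SE 0.36) and DDX55 (-1.05, SE 0.29) led by p. In [R] versus [S] the median was 0.12, with 11 higher and 8 lower, against 6.11% and 9.01% of all genes. TAF1D, of the RNA polymerase I initiation factor SL1 (-1.66, SE 0.38), POLR1D (-1.05, SE 0.28) and NOP53 (-0.97, SE 0.26) led by p. With the line as a block TAF1D was called (adjusted p = 0.0486 from edgeR), where 0.357% of all genes were called lower. In [R] versus [N] the median was -0.23, with 2 higher and 8 lower, against 4.47% and 4.13% of all genes. TMA16 (-1.29, SE 0.32), EFL1 (1.38, SE 0.45) and DDX54 (0.89, SE 0.30) led by p. Between the lines the median was -0.04, with 5 higher and 8 lower, against 6.91% and 7% of all genes. ESF1 (0.57, SE 0.16), TAF1D (0.55, SE 0.16) and EXOSC5 (-0.67, SE 0.21) led by p. Of 11 partners and antagonists of MYC, such as MAX and the MXD genes, edgeR called 0 in any comparison, against at most 0.658% of all genes.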

How the data were processed

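Upstream, the authors used fastp for trimming, HISAT2 2.0 for alignment (GRCh38) and StringTie for expression. The deposited table has unnormalized counts, a row per gene and a column per cell, and which tool counted them is not given in the sources used here. RSEM and Bowtie2 gave the authors' FPKM values, not used here. Counts of each stage and line were added up, giving 10 sums. Genes entered if they passed filterByExpr (minimum count 10) and had a count in at least 12 cells, and were tested with the robust quasi-likelihood test of edgeR 4.0.16 (TMM, R 4.3.3) with Benjamini-Hochberg adjustment. The common dispersion was 0.564. SE was derived from the F statistic, and log2 CPM of sums has a prior count of 2. Per-cell values are log2(CPM + 1), with a pseudocount of 1 CPM. DESeq2 1.42.0, limma 3.58.1 with each cell weighted equally, scaling by library size only, dropping the filter, cells thinned to 15435056 counts (12 shallower cells left out), the line as a block and each sum left out were alternatives. Leaving out 5 cells under 10000 genes, leaving out the [S] cell titled with G, the length bins, centring by name prefix and the test of lines within pairs were added after the data were seen. Sums with the same replicate number are of 1 line and hence paired, and how the lines differ correlated at 0.074 to 0.216 between stages. No 2 cells had identical counts (highest Pearson correlation between cells 0.981, of log2(CPM + 1)). Fits were tested on simulated data. A check of 1 gene, and an alternative that used it, are not reported here.

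The 40 genes, the lists and the tests were chosen with earlier results of these data known. Named are MYC, in each comparison the called genes of the 40 (up to 10) or else the 4 with the smallest p, the highest and the lowest gene, NCL, NPM1, FBL, DKC1 and POLR1B, the 3 highest and 3 lowest by correlation with MYC, and 3 other factors per comparison by p. PES1, BOP1, NOC2L, UTP15 and others beside these were named after their values were seen. The counting strand is not given in the sources used here, and NOP14 overlaps NOP14-AS1, which reached 47.3 CPM in a cell. NPM1 has processed pseudogenes that can share its reads. Transcript lengths are from GENCODE.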

Additional observations from a re-analysis of the deposited data

How the results depend on the processing

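With 2 sums per stage, calls near the threshold depended on the setting, and the cause was not tested. Of the 40 genes, [P] versus [N] had 1 called without a filter on low counts (of all genes 1.2%) and 7 in DESeq2 (4.02%). For [B] versus [N], 3 were called with the line as a block (3.4%), 3 without a filter (3.76%), 11 in DESeq2 (10.7%), 0 with each cell weighted equally (0.126%) and 0 to 1 when a sum was left out. DESeq2 called 1 in [S] versus [N] (4.83%). Between the lines, 2 were called without a filter (1.22%), 2 with thinned cells (1.16%), 2 with equal weights (1.15%), 1 without cells under 10000 genes (0.292%) and 3 in DESeq2 (8.22%). Percentages are of all genes tested in that setting, in either direction. Without the [S] cell titled with G no count of called members changed. Under the line as a block no other count of called members changed.

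When a sum was left out, the median over the 40 genes stayed on its side of 0 in [P] versus [N] (-0.95 to -0.46), [B] versus [N] (-0.90 to -0.34), [S] versus [B] (0.22 to 0.69) and [S] versus [N] (-0.26 to -0.07). It crossed 0 in [B] versus [P] (-0.24 to 0.19), [R] versus [S] (-0.04 to 0.32), [R] versus [N] (-0.12 to 0.02) and between the lines (-0.11 to 0.07). In [R] versus [N] it was also above 0 with library size only (0.06) and with equal weights (0.16). The Spearman correlation of score and MYC within stage and line was 0.45 over all cells, with 0.58 (p53+/+) and 0.23 (p53-/-). It was 0.28 without centring and 0.43 when cells were also centred by name prefix.

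Single genes changed sign as follows. MYC ran from -0.20 to 1.92 in [P] versus [N], -0.53 to 1.12 in [B] versus [N], -1.72 to 0.72 in [B] versus [P], -0.19 to 1.43 in [S] versus [B] and -1.0 to 0.90 in [R] versus [N] when a sum was left out, and was -0.21 in [S] versus [B] within name prefix and line. NOP10 ran from -0.32 to 1.10 in [P] versus [N] and -0.82 to 0.21 in [S] versus [B]. In [B] versus [P], NCL ran from -0.17 to 0.06, DKC1 from -0.44 to 0.12 and FBL from -0.004 to 0.34. NCL ran from -0.43 to 0.11 in [S] versus [N] and DKC1 from -0.06 to 0.56 in [R] versus [S]. In [R] versus [N], FBL ran from -0.42 to 0.11 and DKC1 from -0.42 to 0.20, with 0.032 and 0.09 under library size only and DKC1 at 0.12 under equal weights. Between the lines NCL ran from -0.046 to 0.17, FBL from -0.08 to 0.14 and DKC1 from -0.009 to 0.29, and FBL was -0.003 without a filter and 0.0 to 3 decimals without cells under 10000 genes.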
